A study of Mus musculus with 6 samples.

Results

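The genes described here are 52 genes that act at replication origins and forks in mouse, together with the E2F and cyclin E genes that drive entry into S phase. They were taken by name from a list, and each was read from the probe set with the highest mean log2 level over all 6 arrays. Of the 52, 51 were measured among 18194 genes, and Chaf1a, the large subunit of a histone chaperone, was not matched to a probe set and was not analysed here. All 51 lay above the background limit of every array, defined by the brightest of 27 spike-in controls, which were taken to have no target in the sample.

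RNA came from 6 leukemias of the C57BL/6 strain driven by MLL-ENL, a fusion of a histone methyltransferase with an elongation factor. Bone marrow with Runx1 excised (Runx1-KO, 3 arrays) or intact (Control, 3 arrays) had received MLL-ENL by transduction and had been grown in congenic recipients until these were moribund. Both groups thus carried the fusion, and they differed by label in Runx1, which encodes a transcription factor of blood stem cells and of megakaryocyte and lymphoid development. Not given in the sources used here are the method of excision, the recipients' age and the share of host cells in the harvested material. Levels are probe set intensities. A difference is the mean log2 level in Runx1-KO less that in Control, with limma's moderated standard error (n = 3 per group throughout), and values of 3 arrays are listed in the order 1, 2 and 3. By label the arrays of a genotype are biological replicates, and the test treats them as independent.

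Replication starts when the origin recognition complex, CDC6 and CDT1 load the ring-shaped MCM helicase onto DNA in G1, a step called licensing that geminin blocks once S phase has begun. The kinase CDC7 with its activator DBF4 then recruits CDC45 and the GINS complex, which turn the MCM ring into the active helicase. Primase and 3 polymerases copy the strands, the clamp PCNA is loaded by replication factor C, and RPA with its partners guards the single-stranded DNA. Most of these genes are targets of E2F transcription factors and are transcribed as a programme in cycling cells, so their mRNA follows the share of cells in cycle as well as the level per cell. In bulk RNA of this kind, fewer cycling cells and less RNA per cell cannot be told apart.

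E2F sites are the regulatory sequence that many of these genes share, so the promoters were searched for them. RefSeq windows of build GRCm38.p6, from 250 bases before to 50 bases after a transcription start, were found for 42 of the 52 genes. The letters TTTCCCGC, TTTCGCGC, TTTGCCGC or TTTGGCGC were present on either strand in 15 of the 42 (35.7%), against 2.6% of 27025 genes with such windows. They were found in 3 of 5 licensing genes, 4 of 9 helicase genes, 4 of 8 polymerase genes and 2 of 4 E2F and cyclin E genes. The clamp loader group had 1 of 5, the RPA and fork protection group 1 of 6 and the nucleotide and histone group 0 of 5. The RUNX core TGTGGT, searched on both strands, was present in 7 of the 42 (16.7%) against 18.9% of all genes. The gene sets were not matched on base composition, and a match is a description of the letters, not a measured binding site.

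The 5 segments of 120 bases shown here lie upstream of their gene and are written 5′ to 3′ on the gene's strand, with E2F letters in capitals. Rfc3 and Rfc5 are shown because they had the lowest p among the replication genes, Mcm5 and Mcm6 because they hold overlapping E2F letters, and E2f3 because it encodes an E2F protein itself. The segments lie at chr5:151651209-151651328 (minus strand) for Rfc3, chr5:117389024-117389143 (minus) for Rfc5, chr8:75109348-75109467 (plus) for Mcm5, chr1:128359706-128359825 (minus) for Mcm6 and chr13:29986065-29986184 (minus) for E2f3.
Rfc3: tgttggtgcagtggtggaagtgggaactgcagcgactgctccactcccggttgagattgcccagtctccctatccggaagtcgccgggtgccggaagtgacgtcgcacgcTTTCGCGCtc
Rfc5: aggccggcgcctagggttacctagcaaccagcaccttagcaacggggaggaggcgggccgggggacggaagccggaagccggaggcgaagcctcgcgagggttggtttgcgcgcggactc
Mcm5: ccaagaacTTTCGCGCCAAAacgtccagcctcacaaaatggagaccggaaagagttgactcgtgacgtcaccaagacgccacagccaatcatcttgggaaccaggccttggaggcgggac
Mcm6: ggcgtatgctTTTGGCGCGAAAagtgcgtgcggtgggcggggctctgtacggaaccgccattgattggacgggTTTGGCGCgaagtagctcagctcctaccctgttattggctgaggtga
E2f3: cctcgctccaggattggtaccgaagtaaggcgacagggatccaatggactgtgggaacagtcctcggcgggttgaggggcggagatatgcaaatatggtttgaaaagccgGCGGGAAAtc
Mcm6 holds 3 matches, the first pair overlapping on opposite strands, Mcm5 holds an overlapping pair, Rfc3 and E2f3 hold 1 each next to the start, and Rfc5 holds none of these letters. The Rfc3 window holds a second match that begins at the start site, just past the segment shown.

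Several facts of the whole series bear on the comparison. Runx1 itself was 1.70-fold higher in the arrays labelled Runx1-KO (log2 difference 0.76 ± 0.25, adjusted p = 0.322), with all 6 of its probe sets higher. Where these lie relative to the excised part is not known here, so the signal does not check the labels. Xist was high (1624 to 1895) in all arrays labelled Runx1-KO and lower (25.3 to 331) in Control, while the Y-linked gene Eif2s3y stood at 3.98 to 6.31 and at 638 to 707, so sex and genotype cannot be told apart. All 10 myeloid and MLL fusion markers, among them Ptprc, Mpo, Hoxa9, Meis1 and Kit, were above background on all 6 arrays. Of the 10, 9 differences were positive and that of Cd34 was negative, at -1.39 ± 0.49 (adjusted p = 0.339). Without overlap 1 was higher, Hoxa9, and 1 lower, Cd34 (10% each, against 9.17% and 11.7% of all genes). Across all genes 16 passed an adjusted p of 0.05 in limma, 6 higher (0.033%) and 10 lower (0.055%).

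No replication gene passed the test over all genes. The lowest adjusted p among the 51 was 0.208, and 0 of 51 passed in limma, where 0.0879% of all genes did. At an unadjusted p under 0.05 there were 6, Rfc5, Rfc3, Pola2, Cdc7, Gins1 and Pold2, all lower in the arrays labelled Runx1-KO, where 7.01% of all genes met that limit in that direction, 5.62% in the other and 12.6% in either. The differences lay mostly below 0, with 40 of 51 negative, a median of -0.27 and a range from -0.93 to 0.53, beside a median of -0.01 over all genes. In 18 of the 51 (35.3%) every Runx1-KO array was lower than every Control array, against 11.7% of all genes and 17.1% of genes above background on all 6 arrays. In 2 (3.92%) every Runx1-KO array was higher, against 9.17% of all genes and 9.27% of those above background, and in 31 the groups overlapped. In either direction 20 of 51 stood apart, against 20.9% of all genes and 26.4% of those above background. The 2 higher genes were both licensing factors, and the 18 lower ones lay in the helicase (5 of 12), polymerase (6 of 10), clamp (5 of 7), fork protection (1 of 7) and nucleotide and histone (1 of 4) groups.

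**Figure D1:**
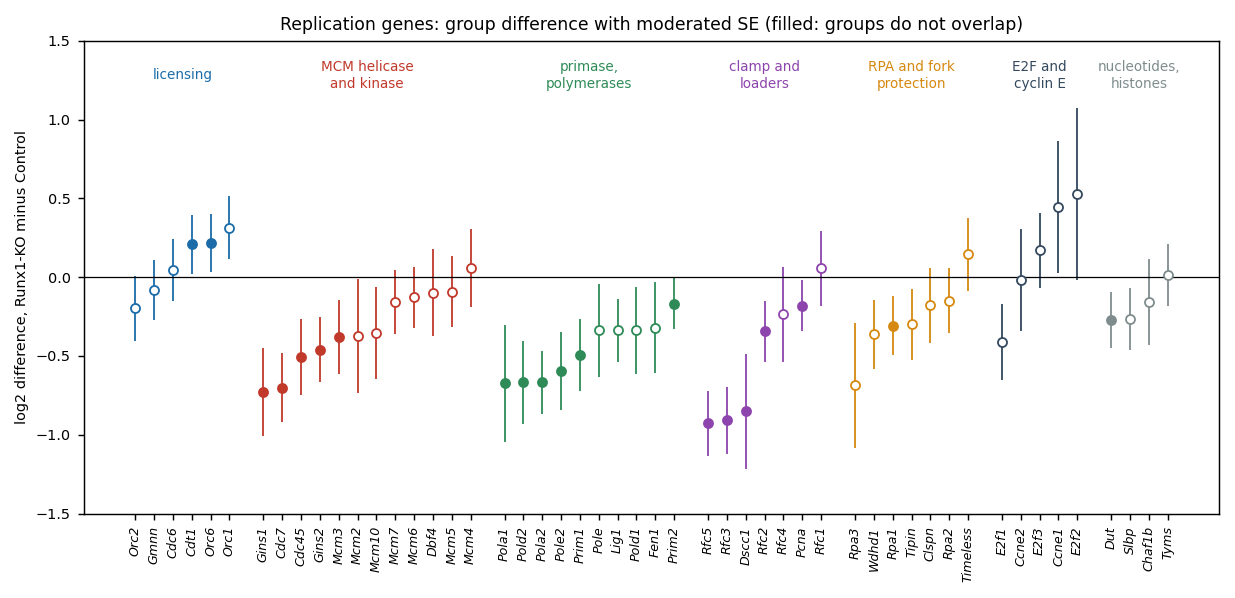
Log2 difference (Runx1-KO minus Control, 3 arrays each) of the 51 replication genes by role, with bars for the moderated standard error and filled points where the groups do not overlap. All 10 primase, polymerase and Okazaki fragment genes lie below 0, and the lowest values are those of Rfc5 and Rfc3 in the clamp loader group.

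A single array carried much of the shortfall. Runx1-KO 2 held the lowest level of 40 of the 51 genes (78.4%), against 23.9% of all genes and 30.3% of those above background on all 6 arrays. It lay below every Control array in 43 of 51 (84.3%), compared with 23 (45.1%) in Runx1-KO 1 and 26 (51%) in Runx1-KO 3. In the same order, the shares over all genes were 34.2%, 30.1% and 33.0%. Among genes above background on all 6 arrays they were 44%, 35.2% and 40%. Against the Control mean, the median over the replication genes was -0.10 in Runx1-KO 1, -0.55 in Runx1-KO 2 and -0.14 in Runx1-KO 3. The Control arrays lay close together, with a median SD of 0.12 per gene on the log2 scale against 0.31 among the Runx1-KO arrays, and the SD was larger in Runx1-KO for 45 of 51 genes, as for 68.9% of genes above background.

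Without Runx1-KO 2 the median difference over the 51 genes was -0.13 and 31 were negative. Genes that stand apart with 6 arrays must also do so with 5, so the 18 lower genes carry over by construction, and no gene was added to them. These 18 were 35.3% of the 51, against 17.2% of all genes with these 5 arrays. Those higher without overlap numbered 7 (13.7%, against 15.4% of all genes with these 5 arrays). The 7 were Orc6, Cdt1, Cdc6, Mcm4, Dbf4, Rfc1 and Timeless.

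**Figure D2:**
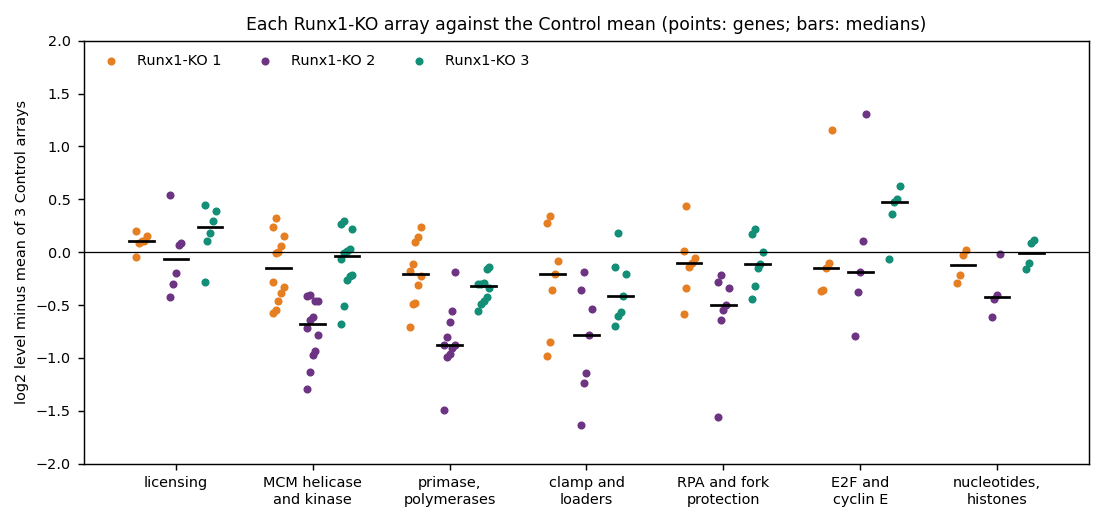
Log2 level of each replication gene on each Runx1-KO array minus its mean over the 3 Control arrays, by role, with 1 point per gene and a bar at the median. Runx1-KO 2 has medians of -0.68 for the helicase group and -0.88 for the polymerase group, while the licensing medians of the 3 arrays lie between -0.07 and 0.24.

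Of the 6 licensing genes, 4 differences were positive and 2, those of Orc2 and Gmnn, were negative, with a median of 0.13, and 0 of 6 passed. In Runx1-KO 2, 3 of the 6 lay below every Control array and 3 above. The counts were 0 below and 4 above in Runx1-KO 1, and 1 below and 5 above in Runx1-KO 3. The median was 0.034 without Runx1-KO 3, with 3 genes on either side of 0, and 0.039 with the mean of all probe sets. CDT1 brings the MCM ring to origins, and Cdt1 intensity was 1247, 1246 and 1590 in Runx1-KO against 1154, 1165 and 1192 in Control (0.21 ± 0.19, adjusted p = 0.684). Orc6, the smallest subunit of the origin recognition complex, stood at 446, 405 and 507 against 399, 404 and 362 (0.22 ± 0.18, adjusted p = 0.657). Both genes were higher in every Runx1-KO array, by margins as small as that between 405 and 404 in Orc6. Without Runx1-KO 3 the differences were 0.091 for Cdt1 and 0.13 for Orc6. With median centring of the arrays 0 genes stayed higher without overlap, and with quantile normalization 1 did, although both differences stayed positive.

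The other licensing genes overlapped between the groups. Cdc6, the ATPase that loads MCM with CDT1, differed by 0.05 with a 95% interval from -0.43 to 0.53. Gmnn, which encodes the CDT1 inhibitor geminin, differed by -0.08 (interval -0.54 to 0.37). Orc1, the subunit that recognises origins in G1, had a difference of 0.31 on the probe set used and of -0.49 on its other probe set, and Orc2 had -0.20 on the probe set used with 2 of its 3 probe sets above 0. The intervals of Cdc6, Gmnn and Orc2 (-0.69 to 0.30) include the helicase median of -0.36. Those of Orc1, Cdt1 and Orc6 do not, with lower limits of -0.16, -0.24 and -0.22. These values do not show that licensing genes were unaltered.

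On the probe sets used, the MCM2 to MCM7 subunits, which form the helicase ring, followed Runx1-KO 2. Mcm2 intensity was 478, 186 and 347 in Runx1-KO against 409.9, 435 and 377 in Control, a difference of -0.37 ± 0.36 (adjusted p = 0.712). Runx1-KO 2 was the lowest of the 6 arrays for Mcm2 and for each of the other MCM ring genes, and for Mcm2 the other Runx1-KO arrays straddled the Control range. Without Runx1-KO 2 the difference was 0.00 for Mcm2, 0.01 for Mcm6, -0.01 for Mcm7, 0.09 for Mcm5 and 0.29 for Mcm4. With all arrays, the next brightest probe set gave -0.92 for Mcm2, -0.68 for Mcm6, -0.23 for Mcm7, -0.29 for Mcm5 and 0.01 for Mcm4. These probe sets were not read singly without Runx1-KO 2. Mcm3 was the ring gene lower in every Runx1-KO array, at 1003, 708 and 1166 against 1187, 1282 and 1198 (-0.38 ± 0.24, adjusted p = 0.547). Its 5 probe sets all had negative differences, and without Runx1-KO 2 the difference was -0.18.

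Among the factors that turn the MCM ring into a moving helicase, Gins1, Gins2, Cdc45 and Cdc7 were lower in every Runx1-KO array, while Dbf4, Mcm10 and the other GINS genes overlapped. GINS is a small ring that clasps MCM and CDC45, and Gins1 stood at 365, 195 and 335 against 466, 466 and 502 (-0.73 ± 0.28, adjusted p = 0.367). Gins2 stood at 203, 195 and 256 against 267, 289.7 and 341 (-0.46 ± 0.21, adjusted p = 0.421). Cdc45 stood at 156, 103 and 163 against 201, 208 and 179 (-0.51 ± 0.24, adjusted p = 0.437), while its other probe set differed by -0.04 and the mean of both by -0.27. On the probe sets used for these 3 genes the highest Runx1-KO array lay below the lowest Control array, and without Runx1-KO 2 the differences were -0.45 for Gins1, -0.38 for Gins2 and -0.30 for Cdc45. Gins3, measured beside the list, differed by 0.28 ± 0.42 and Gins4 by -0.39 ± 0.22.

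The origin-firing kinase and its activator differed in pattern. Cdc7, the kinase subunit, had intensities of 299.5, 211 and 258 in Runx1-KO and 478, 399 and 368 in Control (-0.70 ± 0.22, 1.63-fold, adjusted p = 0.304), with no overlap. Its other, dimmer probe set differed by -0.08, and the mean of both by -0.39. Dbf4, the activating subunit, stood at 548, 337 and 644 against 503, 533 and 545 (-0.10 ± 0.28, adjusted p = 0.910), with Runx1-KO 2 alone below the Control range. Mcm10, which helps the helicase start, overlapped between the groups at -0.36 ± 0.29. Over the 12 helicase genes, 11 differences were negative and all 12 were lowest in Runx1-KO 2. The median was -0.36 with all arrays and -0.09 without Runx1-KO 2.

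Primase and polymerase genes were lower as a group, with all 10 differences negative, a median of -0.41 and 0 of 10 past the test. Without Runx1-KO 2 all 10 stayed negative, at a median of -0.25. Runx1-KO 3 lay below every Control array in 10 of 10, against 33% of all genes and 40% of those above background. Runx1-KO 1 lay below every Control array in 6 of 10 and above in 2, against 30.1% and 31.8% of all genes. Pola1 and Pola2 encode the catalytic and accessory subunits of the polymerase that starts each new strand. Pola2 stood at 53.4, 47.4 and 65.0 against 80.6, 94.5 and 86.3 (-0.67 ± 0.20, 1.59-fold, adjusted p = 0.296), although the mean of its 3 probe sets, 1 of them near background and higher in Runx1-KO, gave -0.044. Pola1 stood at 409, 170.4 and 389.6 against 437, 543 and 465 (-0.67 ± 0.37, adjusted p = 0.502), and without Runx1-KO 2 its difference was -0.26. Pola1 is X-linked, and sex coincided with the groups here.

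Prim1, the catalytic primase subunit, stood at 532, 358 and 539 against 666, 701 and 611 (-0.49 ± 0.23, adjusted p = 0.431), with both its probe sets lower, and at -0.30 without Runx1-KO 2. Prim2, the large primase subunit, stood at 282, 279 and 289 against 311, 328 and 317 (-0.17 ± 0.16, adjusted p = 0.712), a small difference without overlap. Averaged over its 3 probe sets the Prim2 difference was 0.022, so its direction depended on the probe set.

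For the strand-copying polymerases, Pold2, an accessory subunit of the lagging-strand polymerase delta, stood at 71.7, 51.4 and 68.3 against 80.3, 133 and 94.3 (-0.67 ± 0.26, adjusted p = 0.379). Pole2, the second subunit of the leading-strand polymerase epsilon, stood at 231, 163 and 264 against 313, 375 and 292 (-0.59 ± 0.25, adjusted p = 0.397), and at -0.39 without Runx1-KO 2. Its other probe set was higher in Runx1-KO by 0.66, and the mean of both gave 0.035, so Pole2 had no settled direction. The catalytic subunits Pold1 (-0.34) and Pole (-0.34), the flap nuclease gene Fen1 (-0.32) and the ligase gene Lig1 (-0.34), which finish Okazaki fragments, overlapped between the groups. Fen1 stood at 1909, 956 and 1604 against 1870, 1719 and 1776, so that Runx1-KO 1 was its highest array and Runx1-KO 2 its lowest.

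The clamp loader group held the 2 genes of lowest p. Rfc3 and Rfc5 encode small subunits of replication factor C, which opens PCNA and closes it around DNA. Rfc5 stood at 169.7, 129 and 188 in Runx1-KO against 309, 298 and 307 in Control, a difference of -0.93 ± 0.21 (1.90-fold lower, adjusted p = 0.208). Rfc3 stood at 106, 95.5 and 138 against 193, 231 and 207 (-0.91 ± 0.21, 1.88-fold lower, adjusted p = 0.221), and its other probe set differed by -0.53. Both kept most of the difference without Runx1-KO 2, at -0.77 for Rfc5 and -0.79 for Rfc3. The 3 Control arrays of Rfc5 lay within a narrow range, and the nearest Runx1-KO array, at 188, was well below them. Over the alternative analyses the adjusted p ran from 0.0813 to 0.446 for Rfc5 and from 0.0867 to 0.464 for Rfc3.

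The other clamp and loader genes were more mixed. Dscc1, a subunit of the alternative loader that serves sister chromatid cohesion, stood at 129, 53.6 and 113 against 151, 196 and 156 (-0.85 ± 0.37, adjusted p = 0.408), and at -0.46 without Runx1-KO 2 and -0.50 as the mean of its probe sets. Rfc2 stood at 1378, 1009 and 1096 against 1444, 1541 and 1403 (-0.34 ± 0.20, adjusted p = 0.513), with all 3 probe sets lower. Pcna, the sliding clamp, stood at 2263, 2296 and 2366 against 2746, 2557 and 2548 (-0.18 ± 0.16, 1.13-fold, adjusted p = 0.689). Pcna was the clamp group gene in which Runx1-KO 2 was not the lowest array. Rfc4 differed by -0.24 and overlapped. Rfc1, the large subunit, differed by 0.06 on the probe set used and by -0.43 and -0.92 on 2 dimmer probe sets. Of the 7 genes 6 were negative, with a median of -0.34, or -0.25 without Runx1-KO 2.

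**Figure D3:**
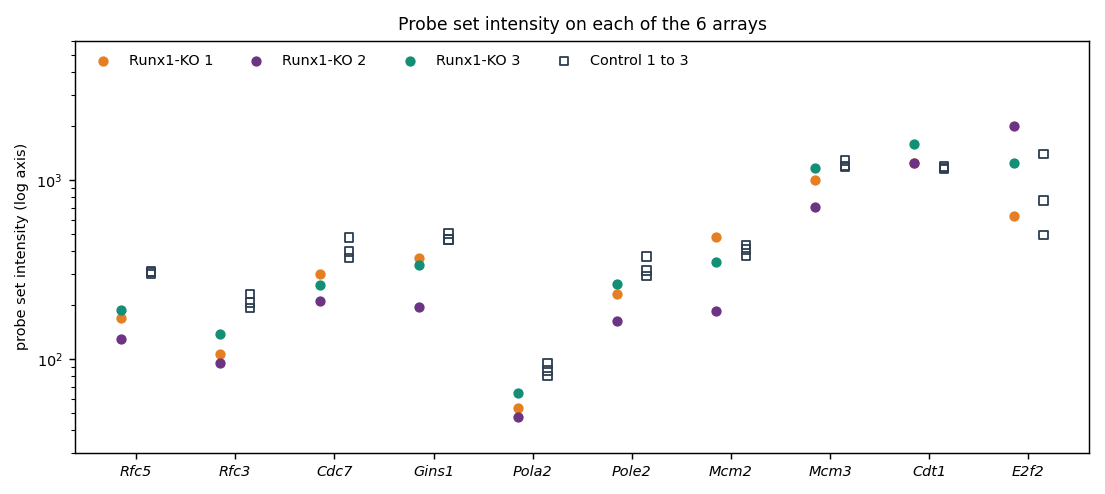
Probe set intensity of 10 replication genes on each array, on a log axis, with filled points for Runx1-KO and open squares for Control. Rfc5, Rfc3, Cdc7, Gins1, Pola2, Pole2 and Mcm3 have every Runx1-KO point below every Control square, Cdt1 has every point above, and Mcm2 and E2f2 overlap.

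RPA coats single-stranded DNA, and TIMELESS, TIPIN and CLASPIN hold the fork together and relay the checkpoint signal. Rpa1, the large RPA subunit, stood at 1204, 914 and 1039 against 1333, 1251 and 1301 (-0.31 ± 0.19, adjusted p = 0.537), without overlap. Rpa3, the smallest subunit, stood at 309, 109 and 237 against 322, 336 and 307 (-0.69 ± 0.40, adjusted p = 0.519), and at -0.25 without Runx1-KO 2. Runx1-KO 2 stood far below the other 5 arrays for Rpa3, and Runx1-KO 1 lay within the Control range. Rpa2 (-0.15), Tipin (-0.30), Clspn (-0.18) and Wdhd1 (-0.36), which links the helicase to polymerase alpha, overlapped between the groups, as did Timeless (0.15). All 7 genes lay below every Control array in Runx1-KO 2, against 3 in Runx1-KO 1 and 2 in Runx1-KO 3. The median was -0.30, or -0.13 without Runx1-KO 2.

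The E2F and cyclin E genes were mixed in direction. E2f1, an activator of the S phase programme, stood at 467, 348 and 576 against 550.5, 661 and 605 (-0.41 ± 0.24, adjusted p = 0.524), and all 3 of its probe sets had negative differences. Runx1-KO 2 was its lowest array, and without that array the difference was -0.22. E2f2, a second activator, stood at 633, 2012 and 1246 against 1402, 492 and 769 (0.53 ± 0.55, adjusted p = 0.730). Runx1-KO 2, the lowest array for most fork genes, was the highest of the 6 for E2f2, and the 95% interval of its difference ran from -0.80 to 1.85. Without Runx1-KO 2 the difference was 0.13. The other E2f2 probe set was also higher in Runx1-KO, by 1.17.

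Cyclin E activates the kinase CDK2 at the start of S phase. Ccne1 stood at 265, 104 and 153 against 160.0, 82.3 and 127 (0.44 ± 0.42, adjusted p = 0.702) and differed by -0.27 on its other probe set, so its direction was not settled. Leaving out Runx1-KO 1 gave 0.086 and leaving out Runx1-KO 2 gave 0.76. Ccne2 differed by -0.02 ± 0.33 and E2f3 by 0.17 ± 0.24. In this group 3 of 5 differences were positive, 0 passed, and Control 2 was the lowest array for 4 of the 5 genes. The median was 0.17, and it was 0.017 with the mean of all probe sets and 0.00033 without Runx1-KO 3. Whether the group differed from the fork genes was not tested.

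Genes of nucleotide supply and histone handling showed small differences. Dut, which removes dUTP before it can enter DNA, stood at 1357, 1163 and 1418 against 1548, 1689 and 1504 (-0.27 ± 0.18, adjusted p = 0.572), without overlap, although its dimmer probe set differed by 0.0055 and the mean of both by -0.13. Slbp, which binds the stem-loop of histone mRNA, stood at 1228, 1137 and 1402 against 1733, 1451 and 1350 (-0.27 ± 0.20, adjusted p = 0.612), or -0.16 without Control 1. Chaf1b, a subunit of the chaperone that deposits histones behind the fork, differed by -0.16 ± 0.27. Tyms, thymidylate synthase, differed by 0.01 with an interval from -0.46 to 0.49. The Tyms probe set used was dim, at 56.2 to 76.8.

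Probe sets of a gene differed in size more often than in sign. Of the 39 genes with more than 1 probe set, 27 had every probe set on the same side of 0, 23 of them lower, and 12 were mixed. Among 45 further probe sets above background, from 34 genes, 35 had negative differences and 29 lay below the probe set used, with a median of -0.34 against -0.20 for the probe sets used beside them. In Mcm6 the probe set used gave -0.13 and the next -0.68, in Mcm2 the values were -0.37 and -0.92, and in Fen1 -0.32 and -0.93. The probe sets used for Mcm4, Mcm5, Mcm6, Mcm7, Pold1, Fen1 and Ccne1 have names ending in _x_at, which marks probes that may bind other transcripts. With the mean of all probe sets per gene the median over the 51 genes was -0.32 and 17 genes were lower without overlap.

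Other genes of the pathway were read in the same way. Of 59 measured genes outside the 52, 0 passed, 42 were negative and the median was -0.28. Without overlap 15 were lower (25.4%, against 11.7% of all genes and 17.1% of those above background) and 4 higher (6.78%, against 9.17% and 9.27%). Among origin and helicase genes, Mcmbp, which binds free MCM, differed by -0.60 ± 0.18, and Mcm8 by -0.59 ± 0.23. Mcmbp had 1 of 3 probe sets on the other side of 0, at 0.27. In the same list Mtbp, a partner of the firing factor treslin, was higher at 0.65 ± 0.20, and the origin recognition gene Orc4 at 0.26 ± 0.20, or 0.11 without Control 3, with 1 of its 4 probe sets at -0.34. Of 18 further polymerase, clamp and fork genes 7 were lower without overlap, among them the loader gene Chtf8 (-0.99 ± 0.30), the polymerase delta gene Pold3 (-0.85 ± 0.33), the topoisomerase gene Top2a (-0.83 ± 0.29) and Rnaseh2a (-0.33 ± 0.16), which helps remove RNA primers. Without Runx1-KO 2 the differences were -0.55 for Pold3 and -0.53 for Top2a. The other probe sets of Top2a, at -0.11 and 0.37, and 1 of Pold3, at -0.09, were closer to 0 or above it.

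Among 15 further E2F, pocket protein and S phase kinase genes, 6 were lower without overlap (40%, against 11.7% of all genes and 17.1% of those above background). E2f6, a repressor E2F, stood at 126, 77.5 and 83.7 in Runx1-KO against 233, 211 and 236 in Control (-1.27 ± 0.24, adjusted p = 0.179). Its other probe set was higher in Runx1-KO, by 0.49, and the mean of both gave -0.39, so E2f6 had no settled direction. The pocket protein gene Rbl2 differed by -0.67 ± 0.24, the cyclin A gene Ccna2 by -0.69 ± 0.24 and E2f5 by -0.84 ± 0.26, near background and with 1 of 3 probe sets, below background, at 0.75. Of 12 checkpoint and CRL4-CDT2 genes, 2 were higher without overlap (16.7%, against 9.17% of all genes, in a list too short to set these shares apart), the clamp loader gene Rad17 (0.44 ± 0.20) and Dtl (0.43 ± 0.22), whose product directs the destruction of CDT1, and 0 were lower. None of these genes passed over all genes.

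Markers of dividing and of other cells are given beside these values. Of 14 mitotic genes 14 were negative, with a median of -0.76 over the list. Lower without overlap were 9 (64.3%, against 11.7% of all genes and 17.1% of those above background on all 6 arrays). Against the Control mean the list stood at -0.29, -1.14 and -0.32 in Runx1-KO 1, 2 and 3, lowest in the same array as the replication genes. The difference in size between the mitotic and the replication genes was not tested. Of 11 mature neutrophil genes 9 were higher without overlap (81.8%, against 9.17% of all genes and 9.27% of those above background). The summed intensity of the 11 was 17250 to 19850 in Runx1-KO against 9082 to 13950 in Control. In Runx1-KO 2 that sum was 18190, between those of the other Runx1-KO arrays. Of 9 macrophage genes 6 were lower without overlap (66.7%, against 11.7% of all genes). The sums over the 9 were 2350 to 2440 against 3998 to 5247, and C1qa was below background on all 6 arrays.

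The summed level of 10 erythroid genes was 6951 in Control 1 and 845.9 to 1277 in the other 5 arrays, with Hba-a1 below background on every array. Without Control 1 the median over the replication genes was -0.29. B cell and stromal markers summed to at most 492 and 255 on any array. T and NK cell markers were dim, with sums of 77.4 to 90.4 in Runx1-KO against 89.7 to 161 in Control. Of 6 such genes 4 were lower without overlap (66.7%, against 11.7% of all genes). Among them were Cd3e (-2.38 ± 0.61) and Gzma (-2.87 ± 0.46), which lay below background on every Runx1-KO array. Nkg7 was higher (2.12 ± 0.64). Gapdh probe sets at the 3′ end of the transcript, set against those at its 5′ end to gauge RNA integrity, gave a ratio of 7.10 in Runx1-KO 1 and 2.67 to 3.02 in the other arrays, with 2.67 in Runx1-KO 2. The same ratio for Actb was 1.03 to 1.11 on all 6 arrays and 1.11 in Runx1-KO 1, so it did not set that array apart. Without Runx1-KO 1 the median over the replication genes was -0.30. The part of the neutrophil, macrophage, T and NK cell and sex differences in these results was not tested.

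**Figure D4:**
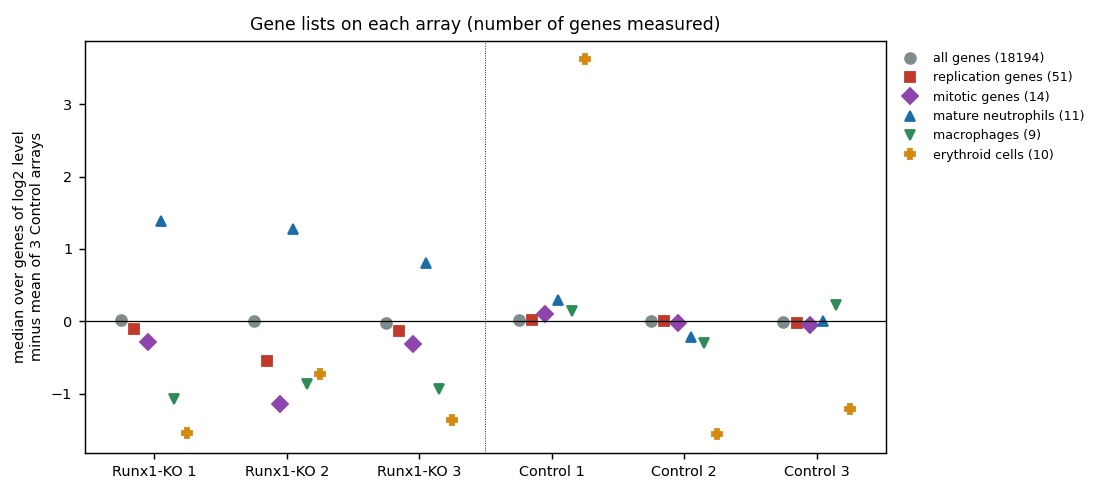
Median over the genes of each list of the log2 level minus the mean of the 3 Control arrays, for each array, with the number of genes in the legend. The replication genes lie at -0.55 and the mitotic genes at -1.14 in Runx1-KO 2, and the erythroid genes at 3.62 in Control 1.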

How the data were processed

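Each of 6 arrays, with a single colour, gave an intensity on a linear scale for 45101 probe sets, as deposited by the authors. Biotin labelling used NuGEN reagents, per the labels' protocols. Their summary method, background correction and normalization are not given in the sources used here. Median intensity was 24.4 to 26.0 per array. With 3 arrays per group, their number limits the precision.

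Symbols came from the platform annotation (34958 probe sets with 1 symbol, 932 with several, 9211 with none). The probe set with the highest mean log2 level stood for each of 18194 genes. Groups were compared on log2 values with limma 3.58.1 in R 4.3.3 (lmFit and eBayes, two-sided, no covariate, no filter), with Benjamini-Hochberg adjustment over all genes at 0.05; the script was tested on simulated data. Members, roles and lists were chosen with earlier results of these data known, so no list was tested, and lists are described by counts and medians. Values on every array are given for genes whose groups did not overlap. In a role group with fewer than 2 of these, they are given for those of lowest p, up to 2. Mcm2, Fen1, Dbf4, E2f2, Gins3, Gins4, Cd34, the T and NK cell genes and the counts by array were added after their values were seen. Of the other pathway lists, up to 4 genes without overlap were named by lowest p. Promoters came from RefSeq tables.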

Additional observations from a re-analysis of the deposited data

How the results depend on the processing

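In all 18 alternatives 0 of the 51 replication genes passed, with lowest adjusted p from 0.0813 to 0.446 and 3 to 15 genes at an unadjusted p under 0.05. The median over the 51 genes stayed negative, from -0.13 without Runx1-KO 2 to -0.33 without both arrays numbered 1, and was -0.18 with array weights and -0.21 with quantile normalization. Of the 24 replication genes that the naming rule gave, direction reversed with the mean of all probe sets for Pole2 (0.035) and Prim2 (0.022). None of the 24 reversed in another alternative. Among the genes added after their values were seen, Dbf4 stood at 0.17 and Mcm2 at 0.003 without Runx1-KO 2, against negative values with all arrays. Gins3 stood at -0.028 without Runx1-KO 1, against 0.28 with all arrays. The helicase median ran from -0.49 to -0.091 (without Runx1-KO 2) with single arrays left out, and the nucleotide and histone median was -0.076 with array weights. For single arrays left out, genes lower without overlap numbered 18 to 26, where 15.3% to 20.5% of all genes were lower in this way. With all arrays there were 13 with quantile normalization, against 10.1% of all genes, and 16 with median centring, against 11.5%. Without both arrays numbered 1 there were 29, an alternative with 4 arrays where 25.4% of all genes were lower in this way. The counts without overlap under other settings were added after the data were seen.

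The count over all genes, 16, was 64 with an offset of 16 before the log, 43 over genes above the median level, 84 over genes above 32 in at least 3 arrays, 104 with a variance trend and robust fitting, 71 with array weights, 36 at an adjusted p under 0.1 and 2 with the unmoderated statistic. It was 2 to 3 with any array left out and 0 without both arrays numbered 1, where 2318 genes had an unadjusted p under 0.05. With the replicate number as a block it was 0 (1929 at an unadjusted p under 0.05), and 0 of the 51 genes passed with a lowest adjusted p of 0.396. The same-numbered arrays did not deviate together (correlations of -0.01, -0.09 and 0.04), and pairs with different numbers ran from -0.11 to 0.10. Such correlations cannot exclude a pairing, and the labels give only a replicate number. The causes of these shifts were not tested.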
